A study of Caenorhabditis elegans with 79 samples.

Results

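The heat shock genes described here are 9 of the 21976 genes in the mRNA table of the study: hsp-16.1, hsp-16.2, hsp-16.41 and hsp-16.48, hsp-70 (sequence name C12C8.1), hsp-12.3 and hsp-12.6, hsp-1 and hsp-4. They are a list of names, and each was found in the table by its gene name. The table covered 12 libraries of polyadenylated mRNA from whole Caenorhabditis elegans hermaphrodites, in 6 groups of 2 libraries. The strains were wild type (WT, strain N2), morc-1(tm6048) and hrde-1(tm1200), each collected early (generation 1) and late (generation 4). All groups were fed OP50 bacteria and grown at 25 °C, after earlier generations at 20 °C, so early and late animals differed in the number of generations spent at 25 °C and not in temperature. Generation cannot be told apart from any difference in collection or library preparation between the early and the late libraries. The labels name no heat pulse, and a library from 20 °C was not analysed here. hrde-1 encodes a nuclear Argonaute protein that carries small RNAs in the germline, and morc-1 encodes a GHKL ATPase of the nucleus. The series title names maintenance of heterochromatin at targets of nuclear RNA interference over generations as the study's subject. The labels do not say whether 2 libraries of a group came from separate cultures, so each p-value reflects the spread between libraries alone, which may be technical.

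Heat shock proteins are chaperones that bind unfolded proteins. In the heat shock response, the transcription factor HSF-1 switches on small heat shock proteins and an inducible HSP70, genes that are almost silent in unstressed worms. The hsp-16 genes encode small chaperones of the alpha-crystallin family and are arranged as divergent gene pairs; hsp-16.2 promoter reporters are a standard readout of heat stress in the worm. hsp-70 encodes the heat-inducible cytosolic HSP70. hsp-12.3 and hsp-12.6 encode short small heat shock proteins, and hsp-12.6 is known as a target of DAF-16, the FOXO factor of the insulin pathway. hsp-1 encodes the constitutive cytosolic HSC70, and hsp-4 encodes the BiP chaperone of the endoplasmic reticulum, a target of the unfolded protein response.

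Levels are in FPKM as deposited, a fragment count scaled for gene length and library size. Of the 9 genes, 6 had a mean of at least 10 FPKM over the 12 libraries and entered the test, hsp-12.6 had a mean of 4.58 FPKM and stayed under that minimum, and hsp-16.1 and hsp-16.48 were listed at 0 in all 12 libraries. hsp-70, hsp-16.2 and hsp-16.41 reached the minimum only through the WT late and morc-1 late libraries, so for them to pass the filter at all these groups had to be high. Counts of members called in comparisons with WT late or morc-1 late are therefore descriptions. The shares of all genes given beside them are no test of the members as a set. Differences are on the scale of log2(FPKM + 1), which understates the change of low genes, and were tested with limma over 7324 genes with Benjamini-Hochberg adjustment at 0.05. The verbs rose and fell are used for genes past that threshold. The FPKM sums of the libraries ran from 0.963 to 1.404 M; the read depth is unknown, so a listed 0 carries no limit, and in each library 27 to 61 of the tested genes were listed at 0. Over all tested genes the median difference of late against early was -0.59 for WT, -0.22 for morc-1 and -0.45 for hrde-1, so a gene with no change on this scale lay above most others. The morc-1 gene stood at 9.77 to 14.1 FPKM in the morc-1 libraries and at 22.4 to 54.9 FPKM in the others. The hrde-1 gene, named wago-9 in the table, stood at 151 and 134 FPKM in hrde-1 early against 234 and 198 FPKM in WT early. In hrde-1 late it stood at 81.1 and 68.5 FPKM against 102 and 97.2 FPKM in WT late. Whether the reads of either gene lie outside the deleted part was not analysed here, so these levels check the labels only in part.

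In WT animals the inducible genes went from near silence at generation 1 to levels between 32.4 and 110 FPKM at generation 4. hsp-16.2 stood at 0.172 and 1.05 FPKM in the 2 WT early libraries, then at 95.7 and 52.2 FPKM in the 2 WT late libraries. Its divergent partner hsp-16.41, which directly neighbours it in the gene order of RefSeq assembly WBcel235, stood at 0.584 and 1.86 FPKM early, then at 110 and 48.7 FPKM late. For both genes every late library lay far above every early library, and replicate 1 of WT late was the higher of the late pair. hsp-70 stood at 0.136 and 0.788 FPKM in WT early, then at 32.4 and 33.3 FPKM in WT late, where the 2 late libraries were nearly equal.

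hsp-12.3 was not silent early. Its WT early libraries stood at 14.6 and 17.3 FPKM and its WT late libraries at 133.2 and 135.7 FPKM, a ratio of group means of 8.42. hsp-12.6, its neighbour in the gene order, stood at 4.16 and 4.55 FPKM in WT early, then at 11.2 and 12.8 FPKM in WT late, a ratio of 2.75. Neither gene's early and late WT libraries overlapped.

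**Figure D1:**
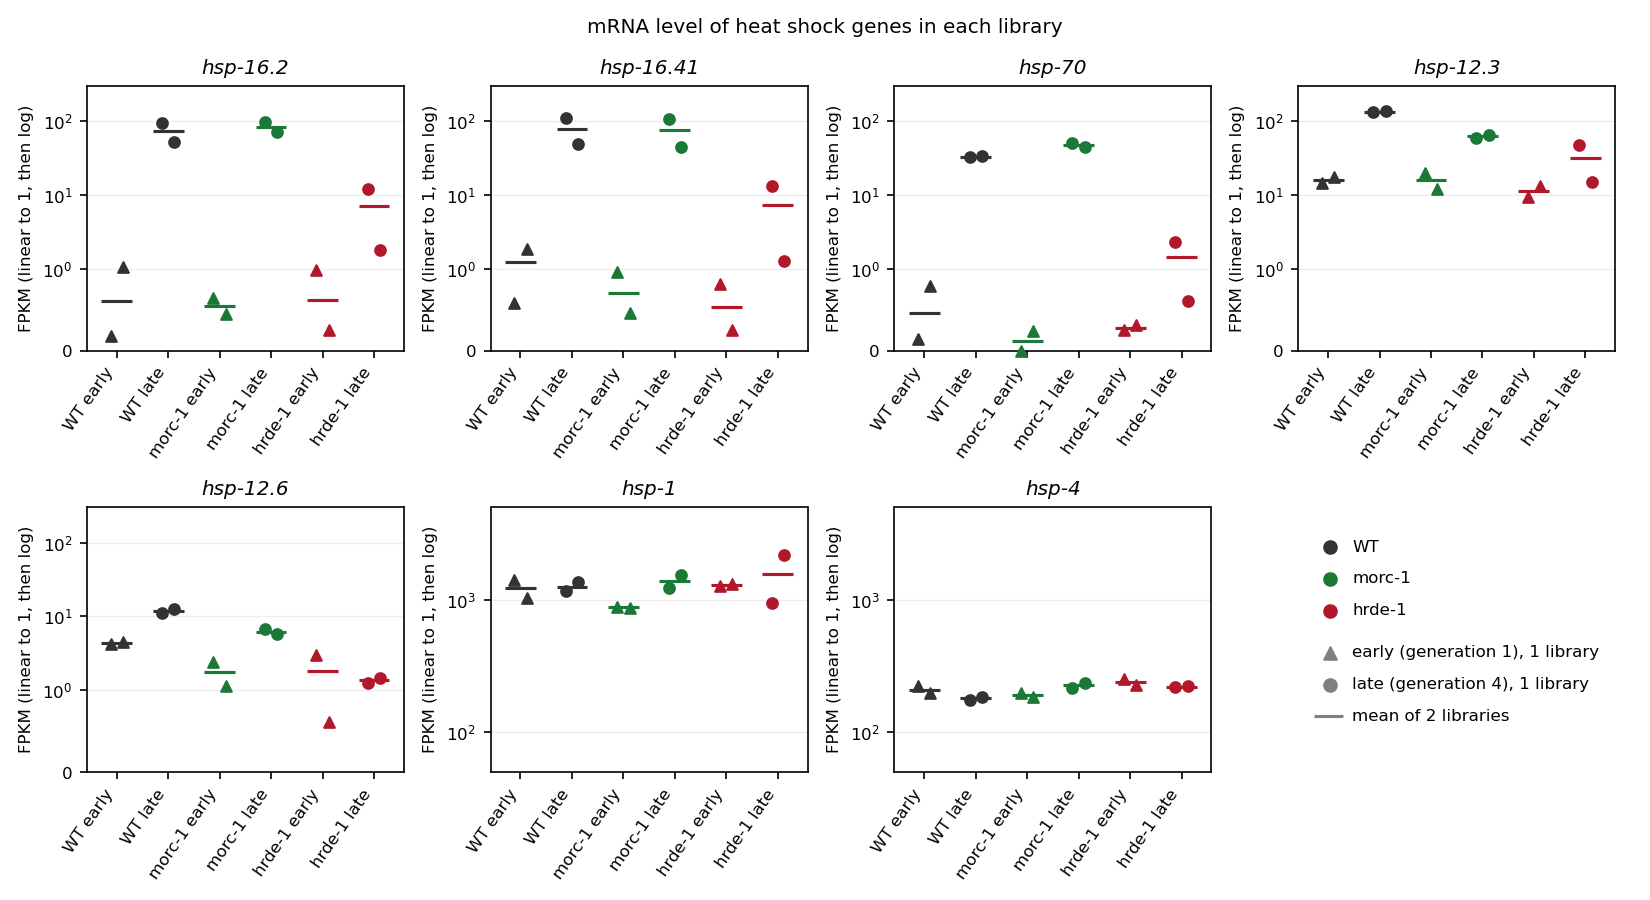
FPKM of 7 heat shock genes (y axis, linear to 1 and then logarithmic, with a separate range for hsp-1 and hsp-4) in each of the 12 libraries, grouped by strain and stage (x axis); each point is 1 library and each bar the mean of 2. hsp-16.2, hsp-16.41 and hsp-70 lie under 2 FPKM in all early libraries, between 32.4 and 110 FPKM in WT late and morc-1 late, and at 13.3 FPKM or less in hrde-1 late.

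Tested across all genes, 4 of the 6 tested members rose from early to late in WT and none fell, where 3.13% of all tested genes rose. This count, and the rank of hsp-16.2 given next, are descriptions, since hsp-70, hsp-16.2 and hsp-16.41 entered the test only through high WT late and morc-1 late libraries. hsp-16.2 rose by 5.53 ± 0.70 (SE; limma adjusted p = 0.00467), the sixth largest rise of 7324 genes. hsp-70 rose by 4.57 ± 0.57 (limma adjusted p = 0.00467) and hsp-16.41 by 5.12 ± 0.83 (limma adjusted p = 0.0119). hsp-12.3 rose by 3.00 ± 0.46 (limma adjusted p = 0.00954). Against the median of all genes at -0.59, these rises are larger by that amount. Without either WT early library, hsp-16.41 and hsp-12.3 kept their direction but no longer passed, with limma adjusted p from 0.0645 to 0.101. hsp-12.6, in the fit of 19190 genes without the minimum, differed by 1.27 ± 0.45 and did not pass (limma adjusted p = 0.139).

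The constitutive HSC70 and the ER chaperone did not follow the inducible genes. hsp-1 was the most abundant member, at 1416 and 1034 FPKM in WT early, then at 1163 and 1362 FPKM in WT late. Its fitted difference was 0.056 ± 0.36, with overlapping libraries (limma adjusted p = 0.918). hsp-4 stood at 224 and 197 FPKM in WT early, then at 176 and 184 FPKM in WT late. Its difference was -0.22 ± 0.20 (limma adjusted p = 0.389), and its late libraries were the lower ones. Relative to the median of all genes, hsp-4 was not lower: with each library centred on its median the difference was 0.40 (limma adjusted p = 0.419).

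In the morc-1 mutant hsp-16.2, hsp-16.41 and hsp-70 reached late levels near those of WT. hsp-16.2 stood at 0.639 and 0.451 FPKM in morc-1 early, then at 96.6 and 70.8 FPKM in morc-1 late. hsp-16.41 stood at 0.954 and 0.459 FPKM early, then at 105.8 and 44.7 FPKM late, again with replicate 1 the higher. hsp-70 was listed at 0 and stood at 0.243 FPKM in the 2 morc-1 early libraries and reached 50.0 and 44.8 FPKM in morc-1 late, above both WT late libraries. For all 3 genes the late libraries lay above every early library.

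From early to late in morc-1, 3 of the 6 tested members rose and none fell, where 0.287% of all tested genes rose. The limit set by the minimum level holds for this count too. hsp-16.2 rose by 5.76 ± 0.70 (limma adjusted p = 0.00571), hsp-70 by 5.44 ± 0.57 (limma adjusted p = 0.00188) and hsp-16.41 by 5.37 ± 0.83 (limma adjusted p = 0.0308). In this strain the hsp-16 calls rested on single libraries: hsp-16.2 did not pass without morc-1 early replicate 2 (0.0590) or without either late library (0.0913 and 0.0580, limma adjusted p). hsp-16.41 did not pass without any 1 of the 4 morc-1 libraries (limma adjusted p 0.0898 to 0.265) or without either WT early library (0.0529 and 0.0537). hsp-70 passed in each of these fits.

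hsp-12.3 was the member whose late level in morc-1 lay farthest from WT. It stood at 19.6 and 12.11 FPKM in morc-1 early, then at 59.2 and 65.7 FPKM in morc-1 late, between its early level and the WT late level. The late against early difference of 1.95 ± 0.46 did not pass (limma adjusted p = 0.164). hsp-12.6 stood at 2.43 and 1.12 FPKM early, then at 6.76 and 5.71 FPKM late, below both WT libraries of the same stage each time; its late against early difference was 1.42 ± 0.45 without the minimum (limma adjusted p = 0.288).

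Directly compared with WT late, none of the 6 members passed in morc-1 late, where 0.355% of all tested genes passed. The differences were 0.22 ± 0.70 for hsp-16.2, -0.089 ± 0.83 for hsp-16.41 and 0.51 ± 0.57 for hsp-70, with limma adjusted p from 0.638 to 0.964. The median difference of all tested genes in this comparison was 0.245. hsp-12.3 differed by -1.096 ± 0.46 and its 2 groups did not overlap (limma adjusted p = 0.375). hsp-12.6 differed by -0.84 ± 0.45 without the minimum, also without overlap (limma adjusted p = 0.575). At an unadjusted p under 0.05 only hsp-12.3 of the 6 differed, where 13% of all tested genes differed and 3.26% were lower. With 2 libraries per group, these standard errors do not show that the levels were equal.

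In hrde-1 mutants the inducible genes stayed low at generation 4. hsp-16.2 stood at 0.982 and 0.245 FPKM in hrde-1 early, then at 12.17 and 1.79 FPKM in hrde-1 late. hsp-16.41 stood at 0.810 and 0.249 FPKM early, then at 13.3 and 1.26 FPKM late. hsp-70 stood at 0.245 and 0.317 FPKM early, then at 2.30 and 0.609 FPKM late. Each late library lay above both early libraries, yet far below every WT late and morc-1 late library. The 2 hrde-1 late libraries were far apart, and replicate 1 was the higher in all 3 genes.

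hsp-12.3 stood at 9.26 and 13.2 FPKM in hrde-1 early, then at 47.9 and 15.2 FPKM in hrde-1 late, the same order of the 2 late libraries. hsp-12.6 stood at 3.00 and 0.610 FPKM early, then at 1.26 and 1.46 FPKM late, so that its late libraries lay inside the early range. hsp-1 went the other way in the 2 late libraries, with 952 FPKM in replicate 1 and 2186 FPKM in replicate 2, the latter its highest value over all libraries.

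From early to late in hrde-1, none of the 6 tested members passed, where 0.765% of all tested genes rose. The differences were 1.95 ± 0.70 for hsp-16.2, 1.92 ± 0.83 for hsp-16.41, 1.22 ± 0.46 for hsp-12.3 and 0.85 ± 0.57 for hsp-70, with limma adjusted p from 0.164 to 0.295; 3 had an unadjusted p under 0.05, where 5.82% of all tested genes were higher at that level. With 1 library left out the differences ran from 0.83 to 3.07 for hsp-16.2, from 0.59 to 3.25 for hsp-16.41, from 0.43 to 2.02 for hsp-12.3 and from 0.33 to 1.37 for hsp-70, lowest without hrde-1 late replicate 1 and highest without hrde-1 late replicate 2. These values were positive, and hsp-12.3 passed after quantile normalization (limma adjusted p = 0.0478) and after centring on the median (0.0495). With a block for the replicate number within each generation, hsp-16.2, hsp-16.41 and hsp-12.3 passed, although the labels do not say that this number pairs libraries. hsp-12.6 differed by -0.10 ± 0.45 without the minimum (limma adjusted p = 0.958).

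Against WT late, 4 of the 6 tested members fell in hrde-1 late and none rose, where 0.683% of all tested genes fell. This count is again a description, since hsp-70, hsp-16.2 and hsp-16.41 entered the test only through high WT late and morc-1 late libraries. hsp-70 fell by 3.88 ± 0.57 on the log2 scale (limma adjusted p = 0.00560), with a mean 22.6 times higher in WT late. hsp-16.41 fell by 3.71 ± 0.83 (limma adjusted p = 0.0409) and hsp-16.2 fell by 3.57 ± 0.70 (limma adjusted p = 0.0246). hsp-12.3 fell by 2.27 ± 0.46 (limma adjusted p = 0.0266). hsp-12.6 fell by 2.46 ± 0.45 in the fit without the minimum, where 1.35% of all genes fell (limma adjusted p = 0.0128). Of the 6 tested members, the 4 that fell lay lower without overlap between the 2 groups, where 11.1% of all tested genes did. hsp-4 lay higher without overlap. The lack of overlap adds little to the 4 calls, which rest on the same libraries. hsp-12.6 also lay lower without overlap. hsp-1 differed by 0.20 ± 0.36 (limma adjusted p = 0.921) and hsp-4 by 0.30 ± 0.20 (limma adjusted p = 0.660).

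hsp-70 passed this comparison in every fit that left out 1 library, with limma adjusted p from 0.00408 to 0.0262. The other 4 falls kept their direction but lost the threshold in some fits. hsp-16.41 passed in 1 of these fits, the one without hrde-1 late replicate 1, and had limma adjusted p from 0.0565 to 0.169 in the others. Without WT late replicate 1, limma adjusted p was 0.115 for hsp-16.2, 0.169 for hsp-16.41, 0.0960 for hsp-12.3 and 0.0579 for hsp-12.6. hrde-1 late replicate 2 was the lower hrde-1 late library for each of these genes except hsp-12.6. Without that library these falls also lost the threshold, with differences of -2.45 for hsp-16.2, -2.38 for hsp-16.41, -1.47 for hsp-12.3 and -2.52 for hsp-12.6. hsp-12.3 and hsp-12.6 also lost it without WT late replicate 2 (0.0882 and 0.0516), hsp-12.3 without either morc-1 late library (0.0509 and 0.0519) and hsp-12.6 without hrde-1 late replicate 1 (0.0657).

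Against morc-1 late, 2 of the 6 members fell in hrde-1 late, where 0.218% of all tested genes fell. The limit set by the minimum level holds here as well. hsp-70 fell by 4.39 ± 0.57 (limma adjusted p = 0.00551) and hsp-16.2 by 3.79 ± 0.70 (limma adjusted p = 0.0352). hsp-16.41 differed by -3.62 ± 0.83 without passing (limma adjusted p = 0.0903). It passed with a pseudocount of 5 (0.0347), without a minimum (0.0493) and with a minimum of 1 FPKM (0.0359, limma adjusted p). It also passed with quantile normalization (0.0398) and with median centring (0.0495, limma adjusted p). In some other settings hsp-16.41 did not pass, with limma adjusted p up to 0.211. With 1 library left out its difference ran from -4.95 to -2.29. The other differences were -1.17 ± 0.46 for hsp-12.3 (limma adjusted p = 0.419) and -1.61 ± 0.45 for hsp-12.6 without the minimum (limma adjusted p = 0.0922). When 1 library was left out, hsp-16.2 passed only where that library was WT late replicate 1, WT late replicate 2 or hrde-1 late replicate 1 (limma adjusted p elsewhere 0.0505 to 0.296), and hsp-70 lost the threshold without either morc-1 late library (0.0737 and 0.0731). This comparison and the one with WT late share the hrde-1 late libraries.

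**Figure D2:**
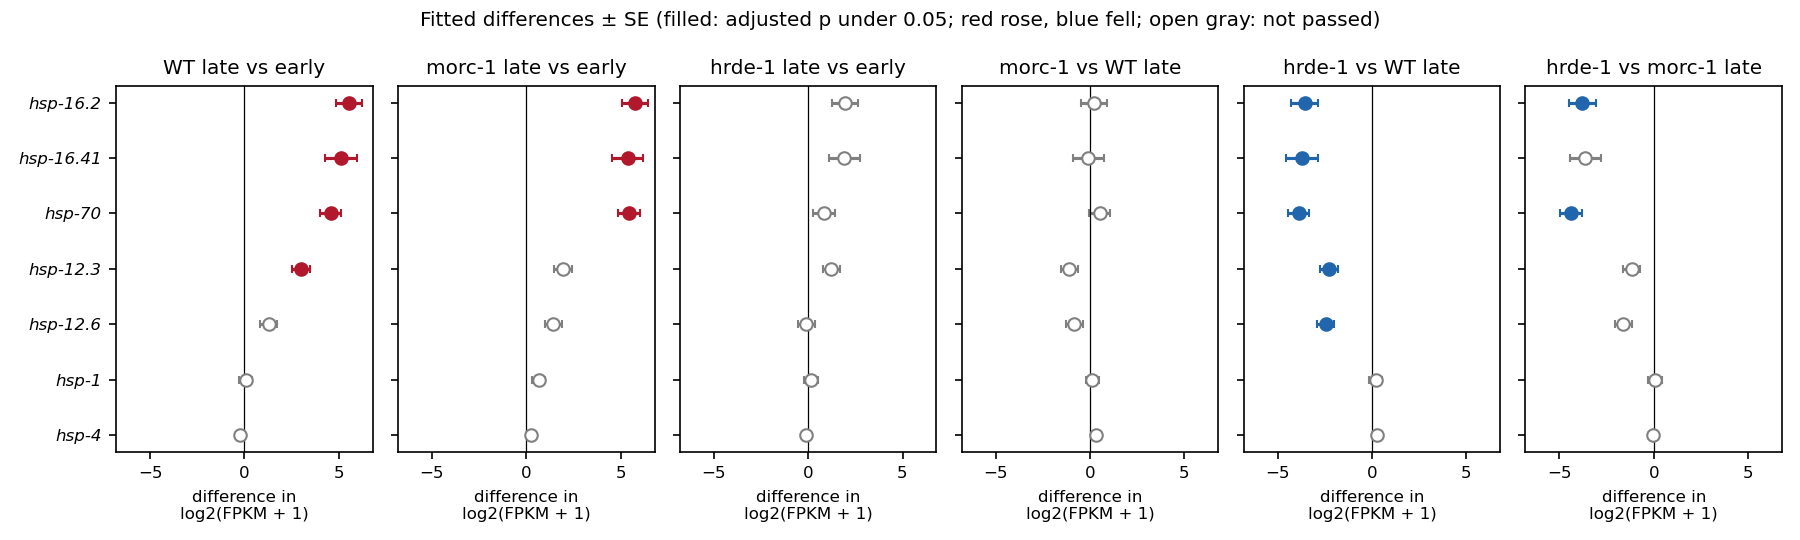
Differences in log2(FPKM + 1) (x axis) with their standard errors for 7 heat shock genes (y axis) in 6 comparisons of 2 libraries with 2; filled red points rose, filled blue points fell and open points did not pass limma's adjusted p of 0.05. hsp-12.6 is from the fit without a minimum level. In WT 4 genes rose from early to late, in morc-1 3 rose, in hrde-1 none passed, and 5 lay lower in hrde-1 late than in WT late.

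At generation 1 none of the 6 tested members passed between strains. In morc-1 early against WT early none of the 6 passed, where 0.109% of all tested genes passed in either direction. In hrde-1 early against WT early none of the 6 passed, where 0.601% passed; an unadjusted p under 0.05 was reached by 0 of the 6 in both. hsp-12.6 was lower in both mutants without overlap with WT early, and in the fit without the minimum it did not pass. It differed by -1.08 ± 0.45 in hrde-1 (limma adjusted p = 0.858, unadjusted p = 0.0401) and by -0.99 ± 0.45 in morc-1 (limma adjusted p = 1, unadjusted p = 0.0552). The difference between strains in the change from early to late was tested by an interaction term. None of the 6 members passed in either mutant, where 0% of all tested genes passed in morc-1 and 0.041% in hrde-1. At an unadjusted p under 0.05 the term differed from 0 for 0 members in morc-1, where 12% of all tested genes did so. It was negative for 4 in hrde-1, where 1.52% of all tested genes were. WT late enters this term. hsp-70, hsp-16.2 and hsp-16.41 reached the minimum only through high WT late and morc-1 late libraries, so the count of 4 is a description. For hrde-1 the term was -3.72 ± 0.80 for hsp-70 (limma adjusted p = 0.351, unadjusted p = 9.26e-04) and -3.59 ± 1.00 for hsp-16.2 (limma adjusted p = 0.688, unadjusted p = 0.00478). It was -3.21 ± 1.18 for hsp-16.41 and -1.78 ± 0.65 for hsp-12.3 (limma adjusted p = 1 for both). The late levels thus differed between hrde-1 and WT by a called amount, whereas the difference in their change over generations was not called for any member. With a pseudocount of 5, or a minimum mean of 1 FPKM, the term for hsp-70 passed (limma adjusted p = 0.0355 and 0.0484).

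Ordered by group mean, the 3 most inducible genes had WT late and morc-1 late on top, hrde-1 late in the middle and the 3 early groups at the bottom. For hsp-16.2 the order was morc-1 late (83.7 ± 18.2 FPKM, SD, n = 2), WT late (74.0 ± 30.7), hrde-1 late (6.98 ± 7.34) and then the early groups at 0.545 to 0.613. The libraries of morc-1 late and WT late overlapped, as did those of the early groups, and hrde-1 late overlapped neither of its neighbours. For hsp-16.41 hrde-1 late (7.28 ± 8.52) overlapped WT early (1.22 ± 0.904). For hsp-70 morc-1 late (47.4 ± 3.68) and WT late (32.9 ± 0.651) did not overlap, and hrde-1 late (1.46 ± 1.20) overlapped WT early (0.462 ± 0.461).

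hsp-12.3 and hsp-12.6 put WT late first. hsp-12.3 stood at 134.5 ± 1.77 FPKM in WT late, 62.5 ± 4.61 in morc-1 late and 31.5 ± 23.1 in hrde-1 late, each without overlap with the next, and hrde-1 late overlapped WT early. hsp-12.6 stood at 11.98 ± 1.0997 FPKM in WT late, 6.23 ± 0.742 in morc-1 late and 4.36 ± 0.275 in WT early, again without overlap. The remaining groups, hrde-1 early, morc-1 early and hrde-1 late, lay between 1.36 and 1.80 FPKM and overlapped. hsp-1 ran from 874 to 2186 FPKM over the 12 libraries with a median of 1259, and hsp-4 from 176 to 253. In hsp-4 every neighbour in the order overlapped except WT late, which stood lowest.

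In the late libraries the ratio of the 2 genes of the hsp-16.2 and hsp-16.41 pair lay between 0.630 and 1.15. The ratio of hsp-16.41 to hsp-16.2 was 1.15 and 0.932 for WT late, 1.096 and 0.630 for morc-1 late, and 1.09 and 0.703 for hrde-1 late. In each late group replicate 1 had the higher ratio. In the early libraries, at levels of 1.86 FPKM or less, the ratio ran from 0.825 to 3.39.

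The other hsp-16 cluster could not be followed. hsp-16.1, hsp-16.48, hsp-16.49 and hsp-16.11 lie next to each other in the gene order of WBcel235 as a duplicated locus of near-identical copies. The first 3 were listed at 0 in all 12 libraries, and hsp-16.11 had group means of 0.0888 FPKM in WT late, 0.282 FPKM for morc-1 late, with every other group listed at 0. Reads that match several copies equally can be dropped or split in counting, so the listed 0 is uncertain and says nothing about whether these copies were expressed.

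Among the 11 other small heat shock proteins of the table, 7 entered the test. From early to late in WT 2 of them rose, where 3.13% of all tested genes rose. hsp-12.1 went from 5.92 and 5.68 FPKM to 29.9 and 16.43 FPKM, a rise of 1.77 ± 0.40 (limma adjusted p = 0.0392). hsp-17 went from 107.2 and 78.0 FPKM to 406 and 201 FPKM, a rise of 1.63 ± 0.35 (limma adjusted p = 0.0337). None of the 7 passed from early to late in either mutant, or in hrde-1 late against WT late, where 4 lay lower at an unadjusted limma p under 0.05, as did 4.11% of all tested genes. In hrde-1 late hsp-12.1 stood at 13.8 and 7.52 FPKM and hsp-17 at 141 and 194 FPKM, below both WT late libraries of the same gene. The median of the list was 0.81 in WT late against early and -0.57 in hrde-1 late against WT late, where the medians of all genes were -0.59 and 0.09.

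Of 7 other HSP70 and HSP110 genes 4 entered the test and none passed limma from early to late in any strain or in hrde-1 late against WT late, with 1 at an unadjusted p under 0.05 from early to late in morc-1 (12.5% of all tested genes) and 0 in the other comparisons. The list also held F44E5.4 and F44E5.5, a neighbouring pair of HSP70 family genes so alike that their reads may be split between them, both under the minimum level. F44E5.4 was listed at 0 or up to 0.116 FPKM in the early libraries, stood at 6.69 and 4.45 FPKM in WT late, with 7.67 and 1.85 FPKM in morc-1 late, and was at 0.262 and 0.0517 FPKM in hrde-1 late. F44E5.5 stood at 6.17 and 4.44 FPKM in WT late, at 8.24 and 2.89 FPKM in morc-1 late, but only at 0.529 and 0.105 FPKM in hrde-1 late. Like hsp-70, both were higher in every WT late and morc-1 late library than in any other. In the fit without the minimum they rose from early to late in WT by 2.62 ± 0.43 and 2.49 ± 0.37 (limma adjusted p = 0.0295 and 0.0204), where 1.20% of all genes rose. They also passed in hrde-1 late against WT late, with differences of -2.49 ± 0.43 and -2.26 ± 0.37 (limma adjusted p = 0.0107 and 0.00859, in the same order).

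**Figure D3:**
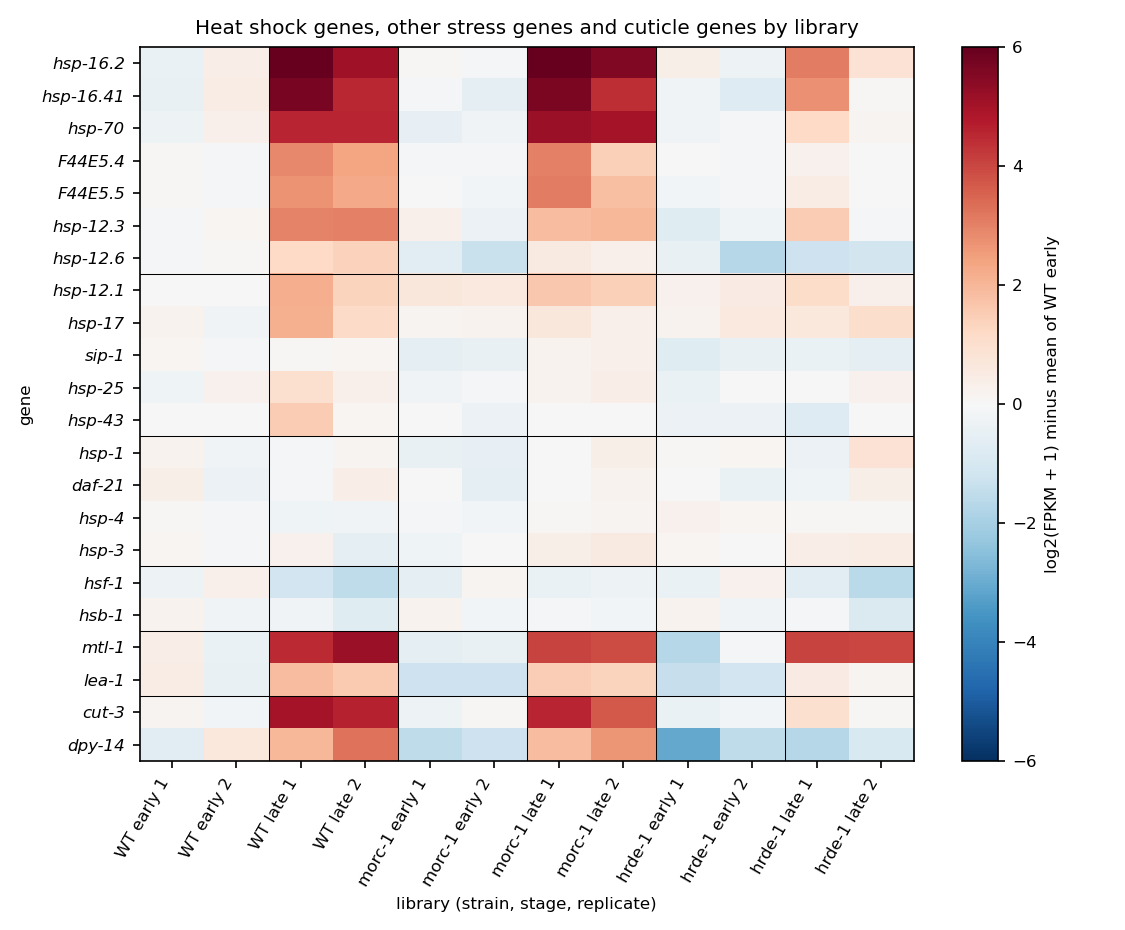
Level of each gene (rows) in each of the 12 libraries (columns) as log2(FPKM + 1) minus the mean of the 2 WT early libraries, red higher and blue lower. From top to bottom the first block holds hsp-16.2, hsp-16.41, hsp-70, F44E5.4, F44E5.5, hsp-12.3 and hsp-12.6. The next blocks hold other small heat shock proteins, constitutive and ER chaperones with HSP90 (daf-21), heat shock regulators, DAF-16 targets and cuticle genes. Apart from hsp-12.6, the first block and cut-3 are red in WT late and morc-1 late and paler in hrde-1 late, whereas mtl-1 is red in all 6 late libraries. hsp-12.6 lies only slightly above WT early in morc-1 late and below it in hrde-1 late.

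The general folding machinery is described by list. Of the 8 genes for HSP90 and its co-chaperones, 14 for the chaperonin TRiC and prefoldin, 17 tested genes of the ER unfolded protein response, 9 tested genes of the mitochondrial unfolded protein response and 31 proteasome genes, none passed from early to late in any strain or in hrde-1 late against WT late. In WT late against early 3.13% of all tested genes rose and 4% fell. At an unadjusted limma p under 0.05, 1 of these 79 genes was higher and 28 were lower in WT late against early, where 7.44% of all tested genes were higher and 36.3% lower. At that level 0 differed in hrde-1 late against WT late, where 12.4% of all did. Their medians in WT late against early ran from -0.69 to -0.22, against -0.59 for all genes. Of 28 tested HSP40 J-domain genes, the partners of HSP70, 1 fell from early to late in WT and 1 rose in hrde-1 late against WT late. Of all tested genes 4% fell in the first of these comparisons and 2.57% rose in the second. dnj-11 went from 159 and 182 FPKM to 82.1 and 52.6 FPKM in WT (-1.36 ± 0.33, limma adjusted p = 0.0446). dnj-14 stood at 110 and 66.5 FPKM in hrde-1 late against 30.1 and 23.8 FPKM in WT late (1.64 ± 0.35, limma adjusted p = 0.0317).

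Of the 7 tested genes for the heat shock factor and its regulators, none passed limma in those comparisons, with 3 lower at an unadjusted p under 0.05 in WT late against early, as were 36.3% of all tested genes, and 0 in hrde-1 late against WT late. hsf-1, which encodes the factor itself, stood at 37.6 and 57.3 FPKM in WT early, then at 20.5 and 15.4 FPKM in WT late, lower in both late libraries. The difference of -1.34 ± 0.40 did not pass (limma adjusted p = 0.0591). In hrde-1 late hsf-1 stood at 28.2 and 14.7 FPKM, overlapping WT late.

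Among 15 tested stress genes linked to DAF-16 and SKN-1, 5 rose from early to late in WT, and none fell. Of all tested genes 3.13% rose and 4% fell in that comparison. mtl-1, a metallothionein, went from 27.7 and 15.3 FPKM to 473 and 787 FPKM in WT (4.82 ± 0.47, limma adjusted p = 9.84e-04). It also rose in morc-1, to 358 and 323 FPKM, by 4.51 ± 0.47 (limma adjusted p = 0.00188), and in hrde-1, to 364 and 342 FPKM, by 4.95 ± 0.47 (limma adjusted p = 5.83e-04). Both hrde-1 late libraries of mtl-1 lay below both WT late libraries, but the difference was not called (-0.79 ± 0.47, limma adjusted p = 0.599). lea-1, which encodes a late embryogenesis abundant protein of desiccation tolerance, rose in all 3 strains, by 1.70 ± 0.29 for WT, 2.64 ± 0.29 for morc-1 and 1.60 ± 0.29 for hrde-1, with limma adjusted p = 0.0157, 0.00264 and 0.0364. It fell by 1.38 ± 0.29 in hrde-1 late against WT late (limma adjusted p = 0.0310), where its libraries stood at 243 and 196 FPKM against 625 and 516 FPKM. dod-3 and hil-1, a linker histone gene, rose in WT by 1.89 ± 0.48 and 1.44 ± 0.27 (limma adjusted p = 0.0480 and 0.0253) and did not pass in either mutant.

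**Figure D4:**
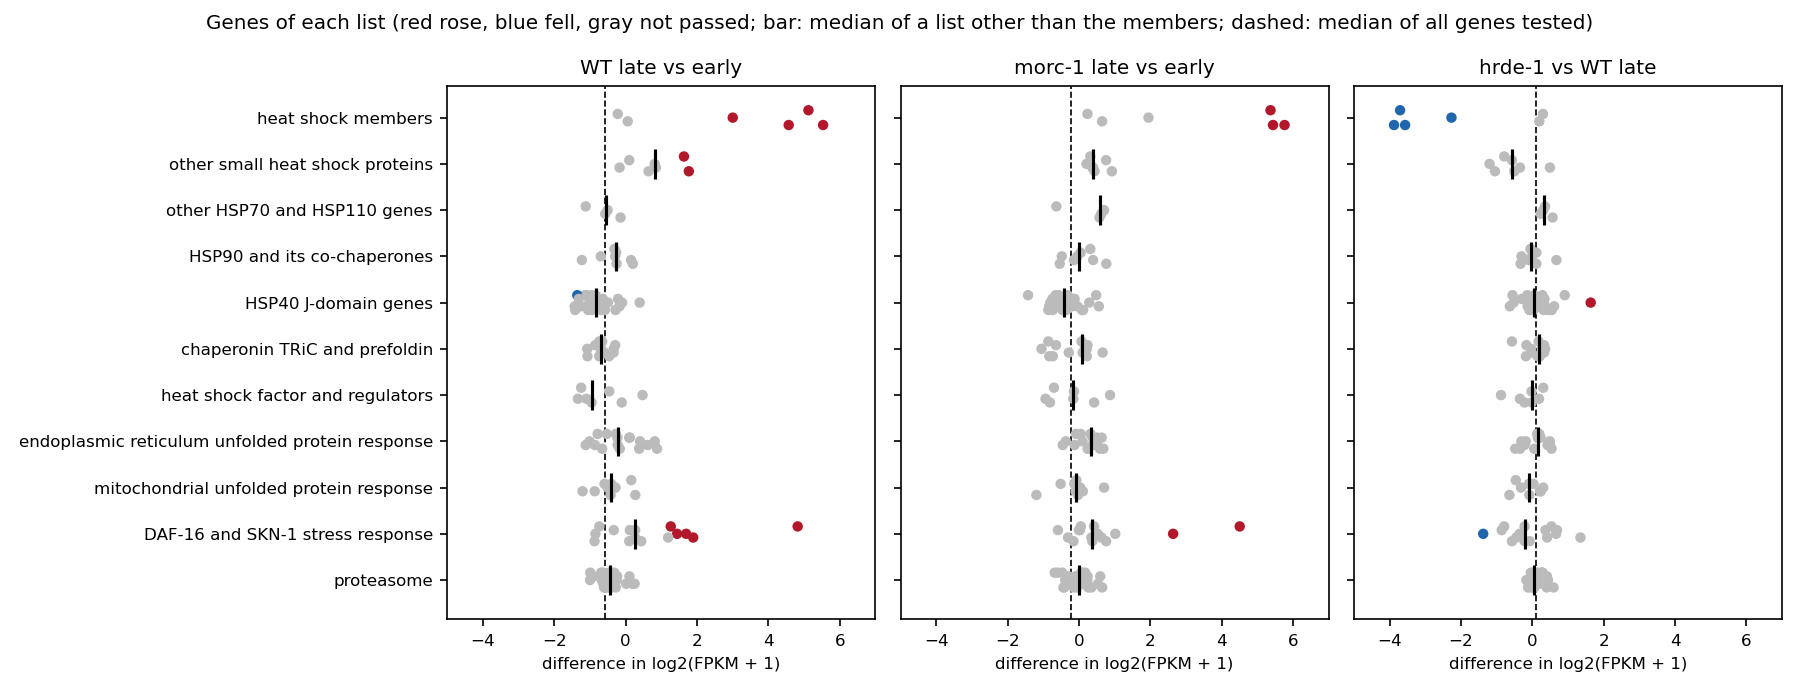
Differences in log2(FPKM + 1) (x axis) of the tested genes (rows) among the heat shock members and 10 chaperone and stress lists, without the tissue marker lists, in 3 comparisons; each point is 1 gene, red rose, blue fell and gray did not pass. Black bars are list medians, drawn for every list except the members, and the dashed line is the median of all 7324 tested genes. Red points in WT late against early lie in the heat shock members, the other small heat shock proteins and the DAF-16 and SKN-1 list.

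Over the 12 libraries, the tested genes most like an inducible member by Pearson correlation of log2(FPKM + 1) were in part each other. hsp-16.2 and hsp-16.41 had r = 0.993, hsp-16.2 and hsp-70 r = 0.979, and hsp-16.41 and hsp-70 r = 0.969. The 12 points share 6 groups of 2 libraries, so r mostly reflects group means. cut-3, a cuticulin gene, had r = 0.979 with hsp-70, 0.964 with hsp-16.2 and 0.966 with hsp-16.41. It too reached the minimum level only through WT late and morc-1 late, so the filter partly set this likeness. The other genes among the 5 most like each of the 3 were cyp-13A5, a cytochrome P450, and hex-1, a hexosaminidase, for the hsp-16 pair, and T05H10.3 and sodh-1, an alcohol dehydrogenase, for hsp-70. T05H10.3 stood at 3.17 and 1.69 FPKM in WT early, 88.5 and 65.2 FPKM in WT late, 45.2 and 41.1 FPKM in morc-1 late and 4.17 and 3.18 FPKM in hrde-1 late, above the 2.37 and 2.95 FPKM of hrde-1 early.

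For hsp-12.3 the 5 most like were tyr-2, a tyrosinase (r = 0.981), hex-1 (0.974), C02F12.5 (0.967), cpr-4, a cathepsin B protease (0.961), and T12D8.5 (0.957). cpr-4 stood at 218 and 180 FPKM in WT early, 1400 and 1835 FPKM in WT late, 811 and 777 FPKM in morc-1 late and 351 and 286 FPKM in hrde-1 late, the same order of late groups as hsp-12.3. hsp-1 was most like pbs-2, a proteasome subunit (r = 0.940), C36A4.5 (0.939), the polyubiquitin gene ubq-1 (0.933), dlat-1 (0.917) and ubxn-3 (0.913). hsp-4 was less tightly matched, by mrp-4 (0.854), puf-3 (0.843), aars-2 (0.842), T16G12.4 (0.837) and C48A7.2 (0.836).

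Markers of tissues and stages moved with the same comparisons, and their part in the results on heat shock genes was not tested. In such whole-animal libraries, fewer cells of a type and less RNA per cell cannot be told apart. Of 5 tested hypodermis and cuticle genes, cut-3 and dpy-14 rose from early to late in WT and in morc-1. Both fell in hrde-1 late against WT late, the pattern of hsp-70. From early to late, 3.13% of all tested genes rose in WT and 0.287% in morc-1. In hrde-1 late against WT late 0.683% of all tested genes fell. Like hsp-70, cut-3 of this list reached the minimum level only through WT late and morc-1 late. The summed level of all 8 genes of that list ran from 441 to 1484 FPKM in WT early, 549 to 2442 FPKM in WT late, 434 to 1352 FPKM in morc-1 late and 220 to 3405 FPKM in hrde-1 late, overlapping throughout. Of 11 tested intestine genes 5 rose and 3 fell from early to late in WT, where 4% of all tested genes fell. In hrde-1 late against WT late 3 of the intestine genes fell. Their summed level was 14887 to 25727 FPKM in WT early, 16022 to 19615 FPKM in WT late, 10435 to 11711 FPKM in morc-1 late and 4181 to 10461 FPKM in hrde-1 late. The yolk genes vit-2 and vit-6 were listed at 0 in all 6 late libraries, and vit-5 in both hrde-1 late libraries, and a listed 0 can be a failed estimate. Of the 3 falls in WT, 2 were vit-2 and vit-6. The 9 genes of the list other than the vit genes summed to 2677 to 3277 FPKM in WT early and 10833 to 13955 FPKM in WT late. Their sums were 7047 to 7159 FPKM for morc-1 late and 4181 to 10461 FPKM for hrde-1 late.

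Germline markers moved as well. Of 8 oocyte genes 5 fell from early to late in WT, where 4% of all tested genes fell. The summed oocyte level was 2729 to 3803 FPKM in WT early and 1435 to 1654 FPKM in WT late. It was 2761 to 2900 FPKM in morc-1 late and 2831 to 3514 FPKM in hrde-1 late. All 7 tested sperm genes rose in hrde-1 late against WT late, where 2.57% of all tested genes rose. The summed sperm level was 545 to 1334 FPKM in hrde-1 late and 26.1 to 172 FPKM in WT late. In morc-1 late it was 112 to 136 FPKM. The 8 general germline genes summed to 685 to 881 FPKM in WT late, 1037 to 1080 FPKM in morc-1 late and 886 to 936 FPKM in hrde-1 late, and none passed limma in those comparisons, with 6 lower at an unadjusted p under 0.05 in WT late against early (36.3% of all tested genes). Of 7 body wall muscle genes 2 rose from early to late in WT, where 3.13% of all tested genes rose. The muscle genes summed to 1040 to 1247 FPKM in WT early and 1803 to 2322 FPKM in WT late. None of them passed in hrde-1 late (1051 to 1910 FPKM) against WT late. At an unadjusted limma p under 0.05, 3 were lower, as were 4.11% of all tested genes. Of 5 tested neuron genes 1 rose from early to late in WT and none passed in hrde-1 late against WT late. Genes first transcribed in the embryo summed to 8.47 FPKM or less in every library, although the extraction protocol describes gravid animals and the source label young adults. The oocyte sums of morc-1 late overlapped those of hrde-1 late. Any relation of these marker levels to the heat shock genes was not tested.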

How the data were processed

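Per the submitters' processing notes, mRNA reads were processed with Trimmomatic 0.35 and TopHat2. The genome build, annotation and quantifier were not given in the sources used here. FPKM is how the values of the table deposited by the authors were read, since they are not whole and the smallest value above 0 is lower for longer genes, although the table is named as normalized counts. Of its 21976 genes, 21954 had an identifier and 19434 matched the supplied names.

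Libraries were grouped by strain and generation. log2(FPKM + 1) of all 12 libraries was fitted with group means in limma 3.58.1 (R 4.3.3, variance trend), for the 7324 genes that averaged 10 FPKM or more, with Benjamini-Hochberg adjustment over all of them and a threshold of 0.05; the 19190 genes above 0 in some library gave the fit without a minimum. The script was tested on simulated data. Replicates correlated at r = 0.897 to 0.950 across genes. Read depth is unknown, so no counting interval is given.

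Members and lists were chosen with earlier results of these data known. Fitted differences are given for members past the threshold and for all members in the comparisons WT late against early and hrde-1 against WT late; others given were added. From each list up to 4 called genes without overlapping libraries were named, and the 5 genes most like each tested member. hsf-1, F44E5.4, F44E5.5, hsp-16.11, the T05H10.3 and cpr-4 levels were described after their values were seen. A planned small RNA test was not made: none of the 9 genes is among the 2434 features of the small RNA table. Chromatin data were not used here. RefSeq WBcel235 gave gene order only.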

Additional observations from a re-analysis of the deposited data

How the results depend on the processing

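The pseudocount (0.1 and 5), the minimum level (none, or a mean of 1 FPKM), quantile normalization, centring on the median, a fit of only the groups compared, blocks for the replicate number and leaving out each library were tried. Called members in WT late against early numbered 2 to 4 when a library was left out (2 without WT early replicate 1 or replicate 2) and 4 in every other setting. In morc-1 late against early they numbered 1 to 4 (1 without morc-1 early replicate 2, late replicate 1 or late replicate 2). In hrde-1 late against early 0 became 1 with quantile normalization or median centring. In hrde-1 late against WT late 4 became 2 with a pseudocount of 0.1 and 1 in the fit of only the groups compared, and 1 to 4 when a library was left out. There, 1 was left without WT late replicate 1 or hrde-1 late replicate 2, and 2 without WT late replicate 2 or either morc-1 late library. In hrde-1 late against morc-1 late 2 became 0 with a pseudocount of 0.1, 1 with only the groups compared, 3 with a pseudocount of 5, no minimum, a minimum of 1, quantile normalization or median centring, and 0 to 4 when a library was left out. There, 0 were left without either morc-1 late library, 4 without hrde-1 late replicate 1, and 1 without hrde-1 late replicate 2 or any early library. The hrde-1 interaction gave 1 with a pseudocount of 5 or a minimum of 1. The cause of these changes was not tested.

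Reversed values, all of differences that did not pass, were hsp-1 in WT late against early (-0.40 with quantile normalization, -0.17 to 0.28 without a library) and in hrde-1 late against WT late (-0.40 to 0.80 without a library), hsp-4 in WT late against early (0.40 with median centring), and hsp-70 in hrde-1 late against early (-0.28 with quantile normalization). In morc-1 late against WT late, hsp-16.2 gave -0.072 with median centring and -0.21 to 0.65 without a library, and hsp-16.41 -0.70 to 0.52. hsp-12.6 in hrde-1 late against early gave -0.76 to 0.55 without a library. Every called member difference kept its sign in every setting.

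Same-numbered libraries deviated together within a generation (correlations of 0.429 to 0.554) and not across generations (-0.222 to 0.047); with 2 numbers this is a hint from the data only. With a replicate block within each generation, 3 members instead of 0 passed in hrde-1 late against early (hsp-16.2, hsp-16.41 and hsp-12.3). hsp-12.3 in morc-1 late against early (limma adjusted p = 0.0239), hsp-16.41 and hsp-12.6 in hrde-1 late against morc-1 late (0.00738 and 0.0453) and hsp-12.6 in WT late against early (0.0415) also passed with it, and it changed no other call of a member. Over all genes 717 rose and 3696 fell in WT late against early, where the fit without it gave 229 and 293. A block over both generations gave 225 and 224. Over all genes that comparison gave 534 rises and 265 falls with quantile normalization, 768 and 176 with median centring, 230 and 85 without a minimum, and 42 and 10 with only its groups. For hrde-1 late against WT late 188 rises and 50 falls became 1276 and 260 without a minimum, 893 and 176 with a minimum of 1, 186 and 105 with quantile normalization, 172 and 100 with median centring, and 66 and 14 with only its groups.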
